A study of Mus musculus with 4 samples.

Results

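The cells described here are Cd209a-positive type 2 dendritic cells from mouse ascites, chosen by their own transcript counts in the BTYNB and combination libraries. A cell was a member when it held at least 200 genes, no more than 33% mitochondrial unique molecular identifiers (UMIs, each standing for 1 captured RNA molecule), at least 2 UMIs of Cd209a and at least 1 of Flt3. It also had to hold at most 1 UMI of Xcr1 and Clec9a together, at most 2 of Ccr7 and Fscn1, at most 1 of the Cd3 chains, at most 2 of Cd79a and Cd79b, at most 1 of the C1q chains and at most 2 of Krt7, Krt8, Krt18 and Krt19. These limits gave 182 members among 25325 cells of the BTYNB and combination libraries, and 45178 cells passed the gene and mitochondrial limits in the whole series. BTYNB held 133 members and combination held 49. The libraries were compared only among cells with at least as many UMIs as the shallowest combination cell, called the floor below, which left 84 and 49 members.

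ID8-Trp53-/- cells, 1 mouse ovarian cancer line that lacks Trp53, were injected intraperitoneally into female C57BL/6 mice aged 6 weeks, and treatment began on day 7 and was given 2 times a week until about 3 mL of ascites had formed. By the labels, control mice received DMSO and an IgG2a isotype antibody at 100 ng per dose, BTYNB mice received BTYNB at 50 mg/kg and the same isotype antibody, anti-PD-1 mice received DMSO and the PD-1 blocking antibody RMP1-14 at 100 ng per dose, and combination mice received BTYNB and RMP1-14. The study's methods give other amounts of BTYNB and of the antibody, so the doses are uncertain. BTYNB is a small molecule that keeps the RNA-binding protein IGF2BP1 from its target RNAs, and the series asks whether it adds to PD-1 blockade. Ascites of 6 mice per treatment was pooled, frozen and sequenced as 1 library, so no difference between libraries has a replicate check, and treatment cannot be told apart from the library or from the day on which a mouse reached the ascites limit. The intervals below are 95% intervals. Those of levels, ratios and shares are exact and cover counting error only. Those of list medians come from the ranks of the genes in the list, treat genes as independent and hold no counting error.

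Conventional dendritic cells take up antigen and present it to T cells. The type 1 branch, marked by Xcr1 and Clec9a and driven by Irf8, presents mostly to CD8 T cells, and the type 2 branch, marked by Cd209a, Clec10a, Mgl2 and Sirpa and linked to Irf4 and Klf4, presents on MHC class II molecules mostly to CD4 T cells. Flt3, the receptor for the dendritic cell growth factor Flt3 ligand, separates both from monocyte-derived cells, which may share Cd209a and Mgl2.

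The 4 libraries held 78603888 to 114600397 UMIs. In BTYNB, 69.8% of the cells past the gene and mitochondrial limits lay under the floor, against none in combination. The libraries shared 13 cell barcodes over all pairs, 3 of them between BTYNB and combination, and none was a member. Members at the floor had a median of 7206 UMIs in BTYNB and 6409 in combination, and summed to 623342 and 324598 UMIs. Scrublet called 1 BTYNB member and 0 combination members a doublet. Of the 49 BTYNB members under the floor, 8 carried plasmacytoid transcripts against their label. They are in the counts of 133 and 182, in the plot of Cd209a against total UMIs and in the values given with no floor, and in no comparison made at the floor.

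Type 2 dendritic cells made up a larger share of BTYNB cells than of combination cells at the floor, but not without it. At the floor they were 84 of 5521 BTYNB cells, or 1.52% (1.22 to 1.88), and 49 of 7042 combination cells, or 0.696% (0.515 to 0.919). With no floor, which removes most BTYNB cells and no combination cell, they were 133 of 18283 BTYNB cells, or 0.728% (0.609 to 0.862), and the combination share was the same as above, so the intervals overlapped. Among leukocytes at the floor, taken as cells with a Ptprc UMI and at most 2 keratin UMIs, the shares were 3.96% of 2123 (3.17 to 4.88) and 2.65% of 1851 cells, whose intervals overlapped. Among leukocytes with a Flt3 UMI they were 11.9% of 704 (9.63 to 14.6) in BTYNB and 8.29% in combination. Tumor cells, those with at least 6 keratin UMIs and no Ptprc UMI, were 43.9% and 52.5% of the cells at the floor, and their part in the difference of the first shares was not tested. The same limits found 2 cells of 7367 in control and 0 of 9256 in anti-PD-1, which allows a share of up to 0.0324%. Leukocytes at the floor were few in these libraries. Members were 2 of 196 in control, or 1.02% (0.124 to 3.64), and 0 of 66 in anti-PD-1, which allows up to 4.55%, above the BTYNB share. No gene comparison was made for either library.

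**Figure D1:**
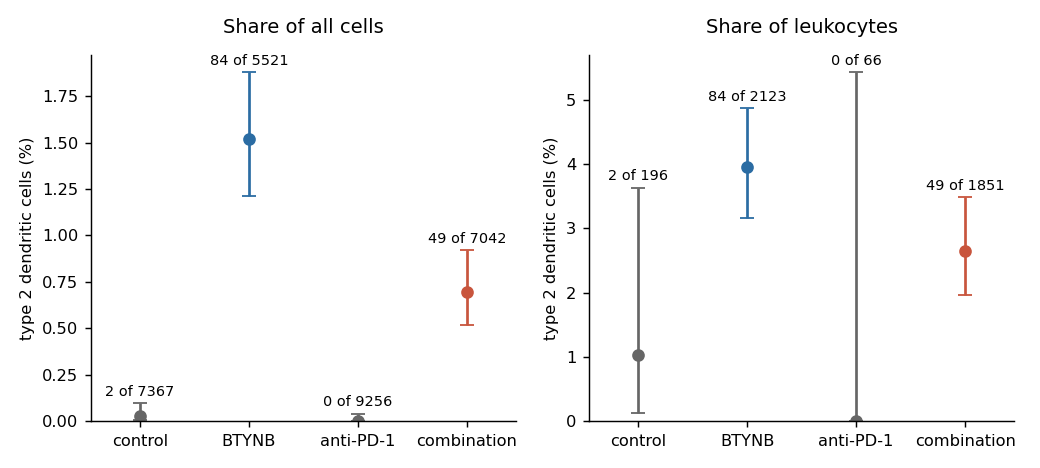
Type 2 dendritic cells as a percent of all cells (left) and of leukocytes (right) at the floor in each of the 4 libraries. Points are shares, bars are 95% exact binomial intervals and labels give the cells counted. BTYNB (84 of 5521) lay above combination (49 of 7042) on the left, while on the right the 2 intervals overlapped.

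Cd209a itself was chosen by the rule, and its values are a description. Members at the floor held 2 to 50 Cd209a UMIs in BTYNB with a median of 5, and a median of 6 in combination. Summed over members, its level in CPM (UMIs of the gene per 1000000 UMIs of these cells) was 1083 for BTYNB and 1297 for combination. Cells of the same kind with exactly 1 Cd209a UMI, just outside the limit, numbered 21 in BTYNB and 7 in combination, and the BTYNB ones had Clec10a at 459 CPM and Mgl2 at 859 CPM, beside 311 and 1094 CPM in the 14 members with exactly 2. The 7 combination ones had Clec10a at 134.8 CPM and 0 UMIs of Mgl2. Members with exactly 2 Cd209a UMIs in combination numbered 11 and had Mgl2 at 170.1 CPM, against 802 CPM in the 38 members with 3 or more.

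The transcripts that the rule did not name matched the type 2 label at the floor in part. Clec10a, a galactose-binding lectin of type 2 cells, was at 483 CPM in BTYNB members against 379 CPM in combination members, and its close relative Mgl2 was at 921 and 653 CPM. Itgam, the integrin CD11b, was at 741 and 536 CPM, Sirpa, an inhibitory receptor of type 2 cells, at 167 and 108 CPM, and the transcription factor Klf4 at 841 and 924 CPM. Irf4 was low, at 40.1 and 46.2 CPM, yet only 0.959 and 1.10 CPM in type 1 dendritic cells. Neither Irf4 nor Sirpa set members apart from Cd209a cells without Flt3, described below, which had 42.3 and 46.1 CPM of Irf4 and 150 and 138 CPM of Sirpa. The list of 25 type 2 identity genes summed to 7248 and 6987 CPM in members and 7957 and 7999 CPM in those cells. In Mgl2 cells, defined below, it summed to 6602 and 5954 CPM. Irf8 was at 43.3 and 40.1 CPM in members and at 1558 and 1655 CPM in type 1 cells, those with at least 2 UMIs of Xcr1 and Clec9a, a Flt3 UMI and at most 1 Cd209a UMI.

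Zbtb46, a transcription factor of conventional dendritic cells, was low. It gave 18 UMIs in 84 BTYNB members and 12 UMIs in 49 combination members, or 28.9 and 37.0 CPM. Tumor cells had it at 28.9 and 29.0 CPM. Markers of splenic subsets were near 0, with Tbx21 at 3 and 2 UMIs, Esam at 2 and 3 and Clec4a4 at 1 and 0.

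The 15 genes with the highest level in members over all other cells at the floor of the same library, taken by the smaller of the 2 ratios, were Cd209a, Ctnnd2, Ifitm1, Cd7, Il1r2, Clec10a, Kmo, Napsa, H2-DMb2, Malt1, Mgl2, Olfm1, Pmaip1, Dpp4 and Itgb7. Since the members were picked by Cd209a and most other cells were tumor cells or macrophages, these folds describe the cells and test nothing. Ctnnd2, a delta-catenin, was 24.2-fold higher than in other cells in BTYNB and 44.1-fold in combination. Il1r2, the decoy receptor that binds interleukin-1 without signaling, was at 874 CPM in BTYNB members and 761 CPM in combination members, against 79.0 and 43.9 CPM in type 1 cells. After thinning it was in 89.3% and 77.6% of members, 82.9% and 63.1% of Cd209a cells without Flt3 and 25.5% and 15.6% of type 1 cells, so it was shared with the cells most like the members. Kmo, an enzyme of tryptophan breakdown, was at 424 and 409.7 CPM against 200.1 and 158 CPM. Cd7, known from T, NK and precursor cells, was at 271 and 324 CPM against 11.5 and 1.10 CPM. Klrd1, the NK receptor chain CD94, was at 403 and 305 CPM against 36.1 and 30.4 CPM. Dpp4, Pmaip1, Olfm1 and Itgb7 were also high in type 1 cells, where Dpp4 was at 409.8 and 319.6 CPM against 330.5 and 376 CPM in members.

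**Figure D2:**
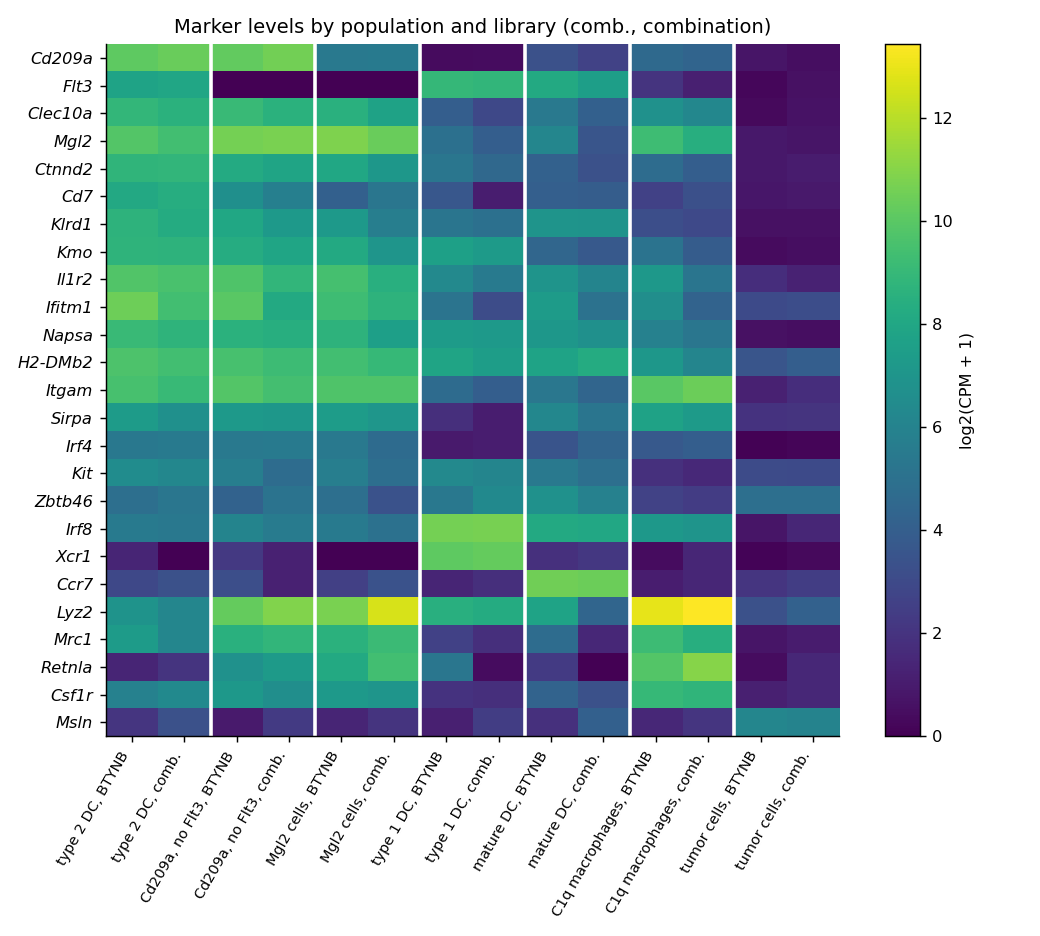
Levels of marker genes, as log2(CPM + 1) of summed UMIs, in 7 populations at the floor (columns, BTYNB beside combination) for 25 genes (rows). Ctnnd2, Cd7, Klrd1 and Kmo were brightest in type 2 cells, Irf8 and Xcr1 in type 1 cells, Ccr7 in mature cells, and Lyz2 in macrophages and in Cd209a or Mgl2 cells without Flt3, while Retnla in the Cd209a cells without Flt3 came from 2.14% and 2.70% of them.

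The nearest neighbors were 140 BTYNB and 111 combination cells that met every limit but had no Flt3 UMI. Members had a median of 1 Flt3 UMI, so a cell without one is not shown to lack Flt3. As a group these cells carried more of the myeloid transcripts of monocytes and macrophages. Lyz2, lysozyme, was at 117 CPM in BTYNB members and 70.9 CPM in combination members, against 1241 and 1871 CPM without Flt3. After thinning, a Lyz2 UMI was in 20.2% and 30.6% of members and 52.1% and 55.9% of cells without Flt3. It was also in 62.5% and 68.3% of type 1 cells, so it was not confined to monocytes and macrophages. Retnla, a secreted protein of alternatively activated macrophages, was at 1 UMI in the members of each library, and its 112 and 159 CPM without Flt3 came from 2.14% and 2.70% of those cells. Mrc1, the mannose receptor, was at 162 and 70.9 CPM against 373 and 452 CPM, and Ccl6, a myeloid chemokine, at 358 and 203 CPM against 1151 and 1342 CPM. In the other direction, Cd7 was at 103 and 55.3 CPM without Flt3, Klrd1 at 257 and 153 CPM, and Ctnnd2 at 294 and 232 CPM against 436 and 456 CPM in members. Clec10a was at 541 and 380.5 CPM without Flt3, close to the members, and Mgl2 was higher there than in members, at 1591 and 1704 CPM, as was Ccr2, at 1070 and 1053 CPM.

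Members were not uniform. An Mgl2 UMI was found in 45 of 84 BTYNB members and 21 of 49 combination members, and members with Mgl2 held it at 1611 and 1472 CPM. After thinning each cell to as many UMIs as the floor, the shares were 52.4% (41.2 to 63.4) and 42.9% (28.8 to 57.8), against 7.67% of 365 thinned type 1 cells in BTYNB, which had a median of 8280 UMIs before thinning. An Mgl2 UMI was not particular to members: 62.1% and 74.8% of thinned Cd209a cells without Flt3 held it, as did 40.5% and 31.7% of C1q macrophages. Within members, Ccr2, the receptor for Ccl2, ran against Mgl2 in both libraries. Members with no Ccr2 UMI, 23 in BTYNB and 11 in combination, had Mgl2 at 1482 and 1114 CPM, and members with Ccr2 had Mgl2 at 687 and 524 CPM. Klrd1 was lower without Ccr2, at 196 and 155 CPM, than with it, at 489 and 347 CPM. H2-Aa differed less, at 10200 and 8589 CPM without Ccr2 and 9494 and 7974 CPM with it. The 11 BTYNB members with no Klrd1 UMI had Mgl2 at 2004 CPM and Cd74 at 18750 CPM, against 746 and 14270 CPM in the other 73. In combination, Cd74 ran the other way, at 8425 CPM in the 13 members without Klrd1 and 11540 CPM in the 36 with it. These are splits of the same few cells by a gene with few counts, and depth moved with some of them. Median UMIs in BTYNB were 7828 with Mgl2 and 6081 without it, and 6958 with Ccr2 and 7973 without it, and the part of depth was not tested.

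The 49 BTYNB members under the floor, which had a median of 3635 UMIs and entered no comparison of libraries, went against the label in part. Of them, 8 cells held at least 2 UMIs of Siglech and Ccr9, markers of plasmacytoid dendritic cells, the interferon-producing branch. Siglech, at 3661 CPM from 109 UMIs, and Ccr9, at 3023 CPM, chose these 8 cells, so their levels there are a description. Single cells held 2 to 65 of these UMIs. Of genes that did not choose the 8 cells, Ly6c2 was at 3526 CPM there and Irf8 at 1679 CPM. Tcf4, the factor that sets plasmacytoid identity, was at 2284 CPM. Mgl2, Itgam and Il1r2 were at 0 UMIs there, which allows up to 100.8 CPM each, and Cd74 was at 2687 CPM. At the floor, by contrast, Siglech gave 4 UMIs in BTYNB members and 1 in combination members, and 3 BTYNB members and 0 combination members passed the same limit on Siglech and Ccr9. Members at the floor were not free of plasmacytoid transcripts. A list of 11 such genes summed to 369 and 351 CPM there, Tcf4 giving 207 and 216 CPM. Each other population compared was lower, with mature dendritic cells next at 268 and 311 CPM.

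The other 41 members under the floor matched the members at the floor only in part. Cd7 was at 1278 CPM against 271 CPM at the floor, Ifitm1 at 2162 against 1415 CPM and Klrd1 at 673 against 403 CPM, and Cd74 was at 13080 against 14890 CPM. Type 2 identity genes went both ways. Clec10a was lower, at 354 against 483 CPM, as was Itgam at 319.5 against 741 CPM, and Zbtb46 gave 1 UMI. Ccr2 was higher, at 1027 against 715.5 CPM, as were Cd7 and Klrd1, while Kmo was level at 421.5 against 423.5 CPM. Il1r2, which is not on the identity list, was at 496 against 874 CPM. Mki67 and Top2a, which mark dividing cells, were at 1 UMI each in the 41 cells, and at 189 and 217 CPM in the 84 cells at the floor. Mgl2 was at 381 CPM against 921 CPM, and Ccl2 was at 0 UMIs, which allows up to 20.4 CPM, against 242 CPM. Of 2245 genes compared between the sets, 27 were at least 2-fold higher and 149 at least 2-fold lower under the floor. The 41 cells summed to 147091 UMIs and the 84 cells to 623342. A limit on UMIs therefore lets in more genes that were lower under the floor, and the counts carry that direction. Combination held no cell under the floor, so this comparison has no counterpart there.

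**Figure D3:**
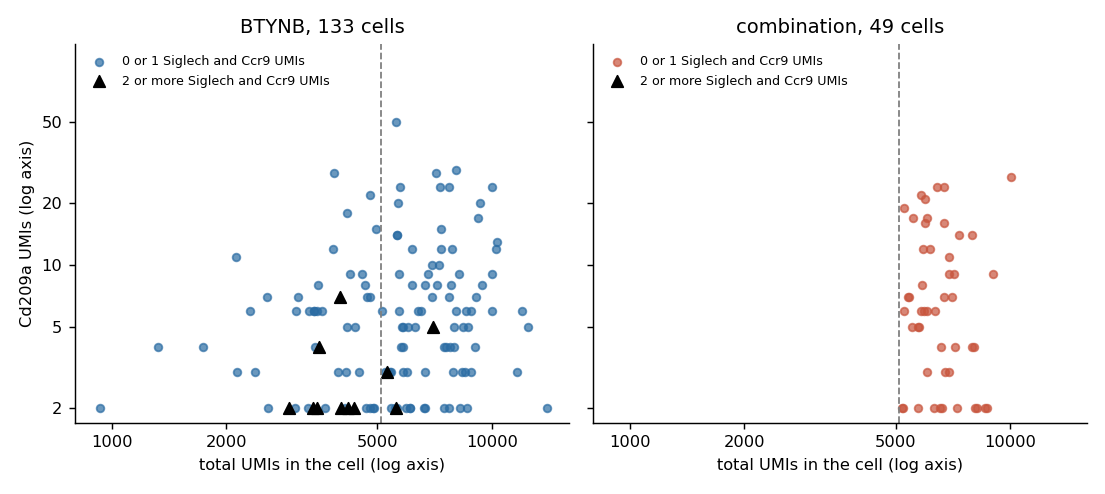
Cd209a UMIs against total UMIs of every member in BTYNB (left, 133 cells) and combination (right, 49 cells), both on log axes. Triangles are members with at least 2 UMIs of Siglech and Ccr9 and the dashed line is the floor. Of the 11 triangles, 8 lie under the floor, and combination has no cell there.

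At the floor, most genes differed by less than 2-fold between the 2 sets of members. Of the 2248 genes that reached 50 UMIs in either library, 8 (0.356%) were at least 2-fold higher in combination and 31 (1.38%) at least 2-fold lower. Fold is given as the log2 of the combination level over the BTYNB level, each as CPM + 1. A gene met that limit at 80.2 CPM in BTYNB and only at 154 CPM in combination, which lets in more genes that were lower in combination. With a limit of 154 CPM in either library, set after the data were seen, 1223 genes were compared, and the counts were 7 higher and 6 lower. The median over all 2248 genes was -0.06, with 41.7% of genes above 0.

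Genes of cell division stood at the upper end. Top2a, the topoisomerase of dividing cells, was at 217 CPM (182 to 256) in BTYNB and 524 CPM (448 to 609) in combination, a log2 ratio of 1.27 (0.94 to 1.61). Birc5, a survival and mitosis protein, had a ratio of 1.23 (0.69 to 1.80). Pclaf, a partner of the replication clamp, was at 324 and 644 CPM, Mki67 at 189 and 364 CPM, and Stmn1, a microtubule regulator of mitosis, at 239 and 394 CPM. All 11 cell cycle genes compared, of 24 listed, were higher in combination, 2 of them past 2-fold, with a median of 0.65 (0.38 to 1.23). Among replication genes, Pcna, the replication clamp, had a ratio of 0.16 (-0.13 to 0.44), and the helicase subunits Mcm4 and Mcm6 had 0.38 and 0.93. A few cells held much of this signal: 5 cells gave 63.0% of the Top2a UMIs in BTYNB and 55.3% in combination.

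The share of members with a UMI of Mki67 or Top2a, which restates those 2 genes per cell, was higher in combination. After thinning to the floor, 26 of 84 BTYNB members (31.0%, 21.3 to 42.0) and 27 of 49 combination members (55.1%, 40.2 to 69.3) held a Mki67 or Top2a UMI, and without thinning the shares were 36.9% and 55.1%. The share was also higher in combination in other cells of the same pools, at 27.4% and 48.4% in type 1 dendritic cells, 23.6% and 53.2% in Cd209a cells without Flt3 and 23.6% and 42.0% in mature dendritic cells, those with at least 3 UMIs of Ccr7 and Fscn1. In 500 tumor cells drawn from each library it was 33.2% and 41.4%. If spread evenly over members, the tumor RNA found in them, described below, would alone give such a UMI to 4.22% of thinned BTYNB members and 15.2% of thinned combination members. With a limit of 2 UMIs, chosen after the data were seen, the shares were 19.0% (11.3 to 29.1) and 42.9% (28.8 to 57.8). The shares expected from evenly spread tumor RNA were 0.0906% and 1.21%. An even spread was not checked, and the part of tumor RNA in these shares was not tested. Members with a Mki67 or Top2a UMI had a lower Cd209a level than the other members, at 834 against 1260 CPM in BTYNB and 1016 against 1685 CPM in combination. Cd209a was chosen by the rule, and depth differed too. Median UMIs were 8232 with such a UMI and 6657 without it in BTYNB, and 6697 and 6045 in combination. The part of depth and of the rule was not tested.

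Genes of MHC class II presentation were lower in combination, each by less than 2-fold. Cd74, the invariant chain that guides class II molecules, was at 14890 CPM (14590 to 15200) in BTYNB and 10690 CPM (10340 to 11050) in combination, a log2 ratio of -0.48 (-0.54 to -0.42). H2-Aa was at 9701 and 8108 CPM, H2-Ab1 at 12880 and 11050 CPM and H2-Eb1 at 8037 and 6873 CPM. All 11 class II genes compared, of 12 listed, lay below 0 and none passed 2-fold, with a median of -0.23 (-0.46 to -0.11). Ciita, the master activator of the class II genes, was at 459 and 425 CPM, with a ratio of -0.11 (-0.41 to 0.19). Cd74 was also lower in type 1 cells (13570 and 9710 CPM), in Cd209a cells without Flt3 (15550 and 11640 CPM) and in C1q macrophages (11140 and 7637 CPM), and was at 862 and 811 CPM in tumor cells. The class II list went the other way in mature dendritic cells, with 7 of 8 genes above 0 and a median of 0.32, and in tumor cells, with 9 of 10 above 0 and a median of 0.34. Endolysosomal proteases, which cut antigen and the invariant chain, had 8 of 8 compared genes below 0, with a median of -0.21, and Ctss, the main protease of Cd74, was at 3780 and 2717 CPM. Class I presentation was level, with 7 of 16 genes above 0 and a median of -0.05, H2-K1 at 2275 and 2079 CPM and B2m at 3491 and 3395 CPM.

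Immediate early genes, which cells induce within minutes of a signal, were mixed. Jun was at 826 CPM (756 to 901) in BTYNB and 1855 CPM (1709 to 2009) in combination, a ratio of 1.17 (0.99 to 1.34), and was found in 74 of 84 and 49 of 49 members. Fos was at 2868 and 3848 CPM, Fosb at 1898 and 2693 CPM and Zfp36, which destabilizes cytokine mRNAs, at 3297 and 4707 CPM. Egr1 was at 709 and 1177 CPM, but 1 combination cell gave 18.1% of its UMIs. Egr2 was lower, at 124 and 58.5 CPM (-1.06, -1.89 to -0.34), as were the nuclear receptors Nr4a2 at 396 and 268 CPM and Nr4a3 at 363 and 253 CPM. In all, 14 of 21 genes compared lay above 0, with a median of 0.21. The Jun ratio was 1.29 in type 1 cells, 0.99 in C1q macrophages and -0.06 in tumor cells.

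Lists of few compared genes came out mostly below 0, as did 1311 of all 2248 genes. Several of their genes reached 50 UMIs in BTYNB alone, so their counts and medians carry the filter's direction and are given as values only. Fc receptors, which bind antibody, had 5 of 5 compared genes below 0, and Fcgrt, the neonatal receptor that recycles IgG, was at 144 and 61.6 CPM (-1.22, -2.01 to -0.52). Fcer1g, the signaling chain shared by activating Fc receptors, was at 1572 and 1275 CPM. Of the toll-like receptors and their adaptors, 4 of 20 could be compared and all 4 lay below 0, among them Unc93b1, which carries the receptors to endosomes, at 586 and 468 CPM, and Sting1, the sensor of cyclic dinucleotides, at 181 and 111 CPM. Of the C-type lectins, 5 of 6 lay below 0. Clec4n, or Dectin-2, which binds fungal mannans, was at 112 and 30.8 CPM (-1.83, -2.99 to -0.90), and Clec7a, or Dectin-1, was at 433 and 385 CPM. Mrc1 was at 162 and 70.9 CPM, but its ratio of -1.18 turned to 0.064 with a floor of 8000 UMIs.

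Cytokine and chemokine genes were few. Il1b was at 395 and 287 CPM and Tnf at 165 and 108 CPM in BTYNB and combination members, and no other cytokine of the 20 listed reached 50 UMIs. Il6, Il12a and Il23a gave 0 UMIs in each library, a limit of 4.81 and 9.24 CPM, and Il12b gave 1 and 0 UMIs. Ccl2, which draws monocytes, was at 242 and 108 CPM (-1.16, -1.74 to -0.63), with 30 of 84 and 18 of 49 cells holding it. Ccl3 was the 1 chemokine of 6 above 0, at 181 and 253 CPM. Ccl17, which draws Th2 cells, gave 2 and 3 UMIs, and Ccl22 gave 0 in both. Csf2ra, a chain of the GM-CSF receptor, was at 507 and 533 CPM, and Il4ra at 104 and 58.5 CPM.

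Of the costimulatory ligands for T cells, 3 of 5 lay above 0, with a median of 0.03. Cd86 was at 231 and 216 CPM, Cd80 at 103 and 105 CPM and Cd83 at 221 and 280.3 CPM. Icosl, the ligand of the T cell receptor ICOS, was at 97.9 and 49.3 CPM (-0.98, -1.88 to -0.18). Cd274, which encodes PD-L1, was at 159 and 222 CPM (0.48, 0.02 to 0.93), and Pdcd1lg2, which encodes PD-L2, gave 12 and 5 UMIs. Among interferon-gamma response genes, 4 of 7 lay above 0 with a median of 0.16, and among type I interferon-stimulated genes 4 of 8 with a median of -0.04. NF-kB genes had a median of -0.05 and heat shock genes -0.02. Igf2bp1, whose protein BTYNB targets, was at 0 UMIs in members of both libraries, and the 3 Igf2bp genes together gave 1 and 5 UMIs.

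Of the identity genes, Tnip3 alone passed 2-fold. Tnip3, an inhibitor of NF-kB signaling, was at 138 and 293 CPM (1.08, 0.65 to 1.52), while in Cd209a cells without Flt3 it was at 197 and 219.9 CPM. Clec10a (-0.35), Mgl2 (-0.49), Itgam (-0.47) and Sirpa (-0.63) were lower in combination and Klf4 (0.14), Ccr2 (-0.07) and Kmo (-0.05) were level. The list as a whole had 6 of 15 genes above 0 and a median of -0.07, beside -0.06 over all genes. Of the dendritic cell transcription factors, 8 of 14 lay above 0 with a median of 0.04 and none passed 2-fold. Chemokine receptors had a median of -0.04 with 1 of 4 above 0, and cytokine receptors -0.20 with 2 of 11, where 41.7% of all genes lay above 0. The 4 compared genes of alternative activation, all below 0, were Clec10a and Mgl2 together with Mrc1 and Il4ra, which reached 50 UMIs in BTYNB alone.

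Ifitm1, an interferon-induced membrane protein that blocks viral entry, was the most abundant of the 31 lower genes. It was at 1415 CPM (1323 to 1512) in BTYNB and 653 CPM (568 to 747) in combination (-1.11, -1.34 to -0.90), and was found in 75 of 84 and 39 of 49 members. The 5 other myeloid populations compared also had less of it in combination, with 34.8 and 7.69 CPM in type 1 cells, 1022 and 284 CPM in Cd209a cells without Flt3, 611 and 407 CPM in Mgl2 cells (at least 2 Mgl2 and 5 H2-Ab1 UMIs, at most 1 of Cd209a, none of Flt3), 167 and 32.2 CPM in mature dendritic cells and 99.5 and 18.1 CPM in C1q macrophages (at least 6 C1q UMIs). Gpr171, a G protein-coupled receptor, was at 257 and 114 CPM, and Spon1, a matrix protein, at 164 and 61.6 CPM (-1.39, -2.18 to -0.71). The remaining genes among the 10 lowest with at least 100 UMIs were Antxr2, Tet2, Atp8a1, Slc8a1 and Sla, with ratios from -1.09 to -0.91. Tmpo, Zc3hav1 and Srsf2 completed the 10 highest, with ratios from 0.67 to 0.77.

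Transcripts of tumor cells were more frequent in combination, in members and in the other leukocyte populations compared. A list of 14 tumor genes summed to 133 CPM in BTYNB members and 416 CPM in combination members, with keratins limited by the rule and Krt7 at 0 in both. The sums were 106 and 322 CPM in type 1 cells, 159 and 412 CPM in Cd209a cells without Flt3 and 98.6 and 358 CPM in Mgl2 cells. They were 580 and 1357 CPM in mature dendritic cells and 147 and 1108 CPM in C1q macrophages. For 7 of the 14 genes, the level in members was 2.65% of that in tumor cells in BTYNB and 8.74% in combination. Lgals1, which encodes galectin-1, was at 468 and 1004 CPM in members, a ratio of 1.10, and at 12240 and 12910 CPM in tumor cells. With this share of tumor RNA subtracted, nothing was left of Lgals1 in combination members, so that ratio gives no direction. Nedd4, a ubiquitin ligase named after its values were seen, was at 28.9 and 157 CPM in members and 964 and 946.5 CPM in tumor cells. The cell cycle median was 0.69 and the class II median -0.15 after the same subtraction. Among other cells, the summed lists were 254 and 154 CPM for macrophages, of which Trem2, Lyve1, Marco and Pf4 were at 0, 89.8 and 46.2 CPM for T and NK cells, 117 and 123 CPM for B cells, and at most 12.3 CPM for neutrophils, mast cells and erythroid cells. The monocyte list was 2641 and 2033 CPM, with Plac8, a small protein of monocytes and plasmacytoid cells, at 1564 and 1158 CPM.

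**Figure D4:**
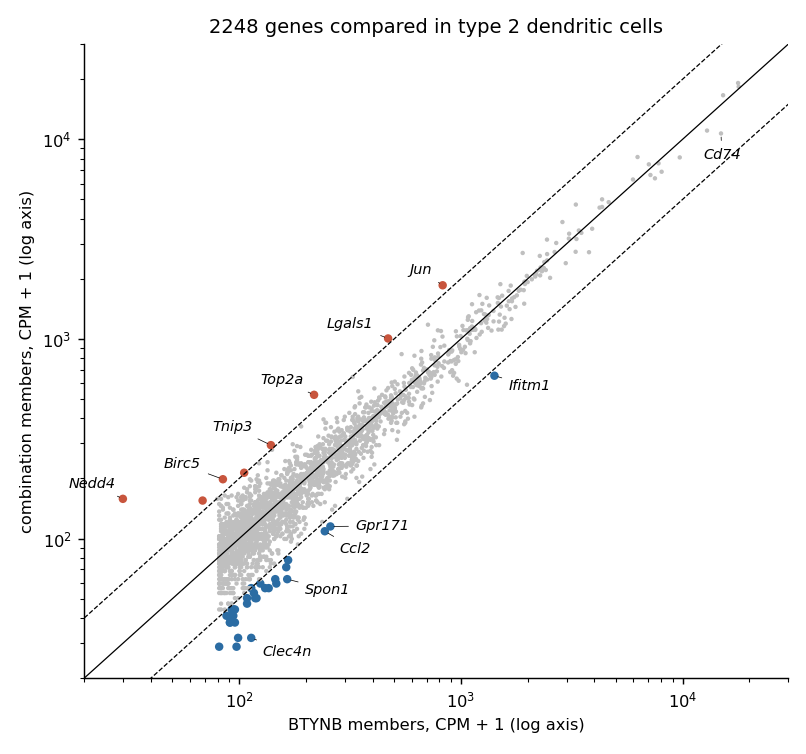
Level of 2248 genes in combination members against BTYNB members, as CPM + 1 on log axes. The solid line is equality, the dashed lines 2-fold and colored points are the 8 genes higher and the 31 lower past 2-fold. Most lower genes sit near the filter at the bottom left, while Jun, Lgals1, Top2a and Ifitm1 lie among well-counted genes.

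**Figure D5:**
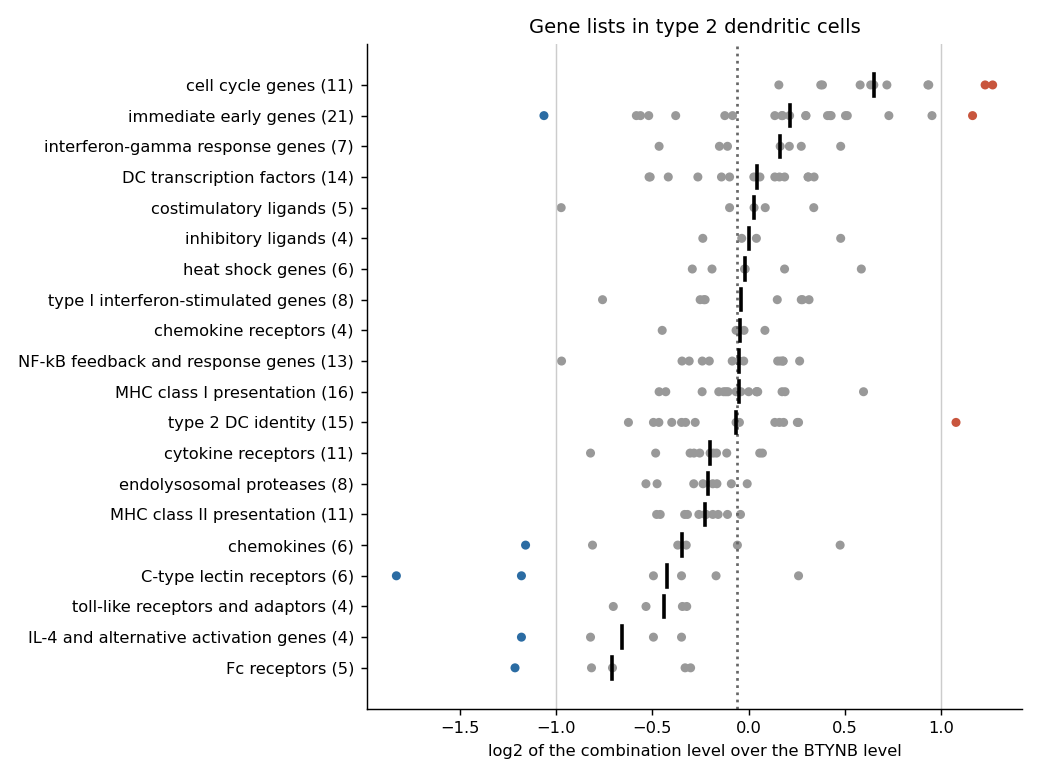
Log2 of the combination level over the BTYNB level for each compared gene (points) of 20 lists with at least 4 compared genes (number in brackets). Black bars are list medians, the dotted line the median of all 2248 genes, and colored points lie past 2-fold. Cell cycle genes lie wholly above 0, and class II genes and endolysosomal proteases wholly below it.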

How the data were processed

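Single cells were captured and sequenced by the authors on the BD Rhapsody platform, and the deposited matrices hold raw UMI counts per gene and cell, 1 matrix per sample, with the genome build GRCm39 per the labels. The pipeline and build set which reads count for a gene, and near-identical genes such as H2-Q6 and H2-Q7 may share reads. The limits on cells are those given with the results. Counts were summed over members and divided by their total to give CPM. With 1 library per group no test was made. Ratios are log2 of CPM + 1 (pseudocount 1), with exact conditional 95% intervals, and shares have Clopper-Pearson intervals. List medians have order-statistic intervals over the genes of the list. A count of 0 was read as at most 3 counts. Genes needed 50 UMIs in at least 1 library. Cells were thinned at random to the floor for shares. Scrublet (scanpy 1.11.5) scored doublets, and none were removed except in an alternative; the highest 5% of scores held 2 BTYNB members and 1 combination member. Python 3.11.15, numpy 2.4.6 and scipy 1.17.1 were used. The ratio was run on simulated counts, where 198 of 198 genes changed 4-fold and 9 of 2065 unchanged genes passed 2-fold. That simulation held counting error only and no variation between cells. It cannot show how the ratio behaves for genes whose UMIs came from few cells.

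The members and gene lists were chosen with earlier results of these data known. Genes named are those of the rule and the identity list, the 4 best counted of each list with any past 2-fold, the 10 highest and 10 lowest ratios at 100 or more UMIs, and the 15 with the highest level over other cells. Other genes were named after their values were seen.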

Additional observations from a re-analysis of the deposited data

Results flagged for a closer look

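One signal appeared in cells that the comparison of libraries did not use. The 49 BTYNB members under the floor held 112 Siglech UMIs, whereas 84 BTYNB members at the floor held 4, and 8 of the 49 cells gave 109 of them. Leaving out members with at least 2 UMIs of Siglech and Ccr9 changed the BTYNB share with no floor from 0.728% to 0.667%.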

How the results depend on the processing

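Of the shares, counts of genes and list medians together, 265 values under alternatives stayed close to those reported and 24 moved, and none reversed. List medians made up 234 of the close values but only 3 of the moved ones, so most values that moved were shares or counts of genes. Of the other values checked, 305 stayed close, 32 moved and 5 reversed. The 84 BTYNB members gave 1.52% of cells, against 0.728% with no floor (combination 0.696%), 0.661% with a floor of 8000 UMIs, 1.90% with a Cd209a limit of 1 UMI, 4.06% with no Flt3 limit, 3.96% of leukocytes, and 0.667% with no floor and without members of 2 or more Siglech and Ccr9 UMIs. Combination gave 0.158% with a floor of 8000 UMIs, 2.27% with no Flt3 limit and 2.65% of leukocytes. The number of genes compared changed as well. The 8 of 2248 genes past 2-fold higher became 16 of 2794 with no floor and 18 of 874 with a floor of 8000 UMIs. They became 5 of 1915 with a Cd209a limit of 3 UMIs, 2530 of 14070 with no filter on low counts and 2 of 520 with at least 200 UMIs. With no Flt3 limit they became 60 of 4668, and without members that hold a Mki67 or Top2a UMI 4 of 1281. The 31 lower genes became 51 of 2794 with no floor and 47 of 874 with a floor of 8000 UMIs. They became 2736 of 14070 with no filter, 1 of 520 with at least 200 UMIs and 6 of 1223 with the limit set as a level. Without members that hold a Mki67 or Top2a UMI, the medians were 0.20 for cell cycle genes, -0.22 for class I genes and -1.79 for chemokines, and Tmpo (-0.33) and Egr1 (-0.042) reversed. Mrc1 reversed with a floor of 8000 UMIs (0.064) and with no Flt3 limit (0.19). Lgals1 gave -7.22 with tumor RNA subtracted, which left nothing of it in combination members, so no direction can be read. Filters alter which genes are tested, and for the other changes the cause was not tested. The alternatives on Siglech, on the Flt3 limit, on Mki67 and Top2a (limit of 2 UMIs included) and on the level were chosen after seeing the data. No paired analysis was possible because each group has 1 library.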
